A study of Mus musculus with 12 samples.

Results

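The enzymes described here are the cytochromes P450, the UDP-glucuronosyltransferases, the glutathione S-transferases and the cytosolic sulfotransferases. They were taken by gene symbol: Cyp followed by a digit, Ugt1 and Ugt2, Gst with the class letters a, k, m, o, p, t or z, and Sult followed by a digit. Of 35241 symbols in the table, 199 matched, with 466 transcripts, and 37 of the 199 carry a pseudogene symbol. No measured value entered this symbol rule, though the families were chosen with earlier results of these data known.

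The series holds RNA from full-thickness distal colon of 12 mice, homogenised with its muscle and connective tissue. The 6 Spry2IEKO mice were Vil1::Cre;Spry2-f/f, in which Cre driven by the villin promoter removes Spry2 (Sprouty2, a regulator of receptor tyrosine kinase signalling) from the intestinal epithelium and leaves other cells of the wall intact. The 6 Spry2FF mice were Spry2-f/f littermates without Cre, so both genotypes were homozygous for the floxed allele and there was no group without it. The labels name no treatment. Both litters, named A and B, held 3 mice of each genotype, and the labels give an age of 6 weeks in 1 place and 8 weeks in another. There were 3 males among the Spry2FF mice and 1 among the Spry2IEKO mice, and 2 males in each litter. The column headers carry 1 prefix for litter A and another for litter B, so litter and whatever was shared by the mice of a prefix cannot be told apart.

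These families do most of the chemical work by which the gut wall handles drugs, plant compounds, bile acids and the by-products of its microbes. P450s, which sit in the endoplasmic reticulum or in mitochondria and draw electrons from NADPH, add oxygen to their substrates. The transferases then attach glucuronic acid, glutathione or sulfate, which makes the products more soluble and easier to pump out. Liver holds the greatest amounts, and the intestinal epithelium, with its absorptive cells facing the lumen, is the best known site outside it. Many members are controlled by the ligand-activated factors AhR, PXR and CAR and by Nrf2, and others make or break down hormones, sterols, eicosanoids and retinoids.

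Levels are called normalized TPM here. The labels do not name the unit, and it was taken as TPM (a length-corrected share of transcripts) scaled again between mice from the tools the authors used and from totals that differ between mice. On that reading genes can be compared per length. Spry2 stood at 20 ± 1.59 (SD, n = 6) in Spry2IEKO mice and at 27.7 ± 3.29 (SD, n = 6) in Spry2FF mice without overlap (two-sided exact permutation test, p = 0.00216). Markers of absorptive colonocytes summed to 2832 to 7360 in every mouse. The lists for other sites were mixed. Of 6 small intestinal markers, sucrase-isomaltase (Sis), lactase (Lct) and Apoa4 had means of 0.0830, 0.135 and 0.0377, whereas Rbp2, Fabp2 and Fabp6 had means of 87.5, 17.8 and 15.5, and the list summed to 81.3 to 179. Of 6 hepatocyte markers, Fgb, Ahsg, Serpina1a and Apoa1 were each at a mean of 0.0899 or less, whereas Ttr was at 83.8 and Alb at 1.88 (highest mouse 4.82). The 5 squamous markers summed to at most 4.12. Adipocyte markers summed to 475 and 898 in Spry2IEKO mice 4 and 5, both of litter A, and to 26.1 to 89.5 in the other 10 mice. Read depth per mouse is unknown because the table holds no counts, and any 2 mice correlated between 0.914 and 0.972 across genes.

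Distal colon expressed a minority of the members, and a small set carried most of the message. Of the 199, 149 were above 0 in some mouse, 81 reached a mean of 0.5, 53 reached 10 and 12 reached 100, whereas 50 were listed at 0 in every mouse. Together they summed to 5476 ± 530 (SD, n = 12; range 4736 to 6814), or 0.548% of all normalized TPM. The 10 most abundant members held 63.4% of that sum. Gst genes gave 2213 ± 168 with 20 of 23 members at 0.5 or more, and Cyp families 1 to 4 gave 1703 ± 297 with 39 of 110. Sult genes gave 925 ± 107 with 8 of 27, Ugt genes 486 ± 42.6 with 7 of 19, and the other Cyp genes 149 ± 13.1 with 7 of 20 (SD, n = 12 throughout). The share expressed was thus highest in the Gst families and lowest in the Sult families.

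**Figure D1:**
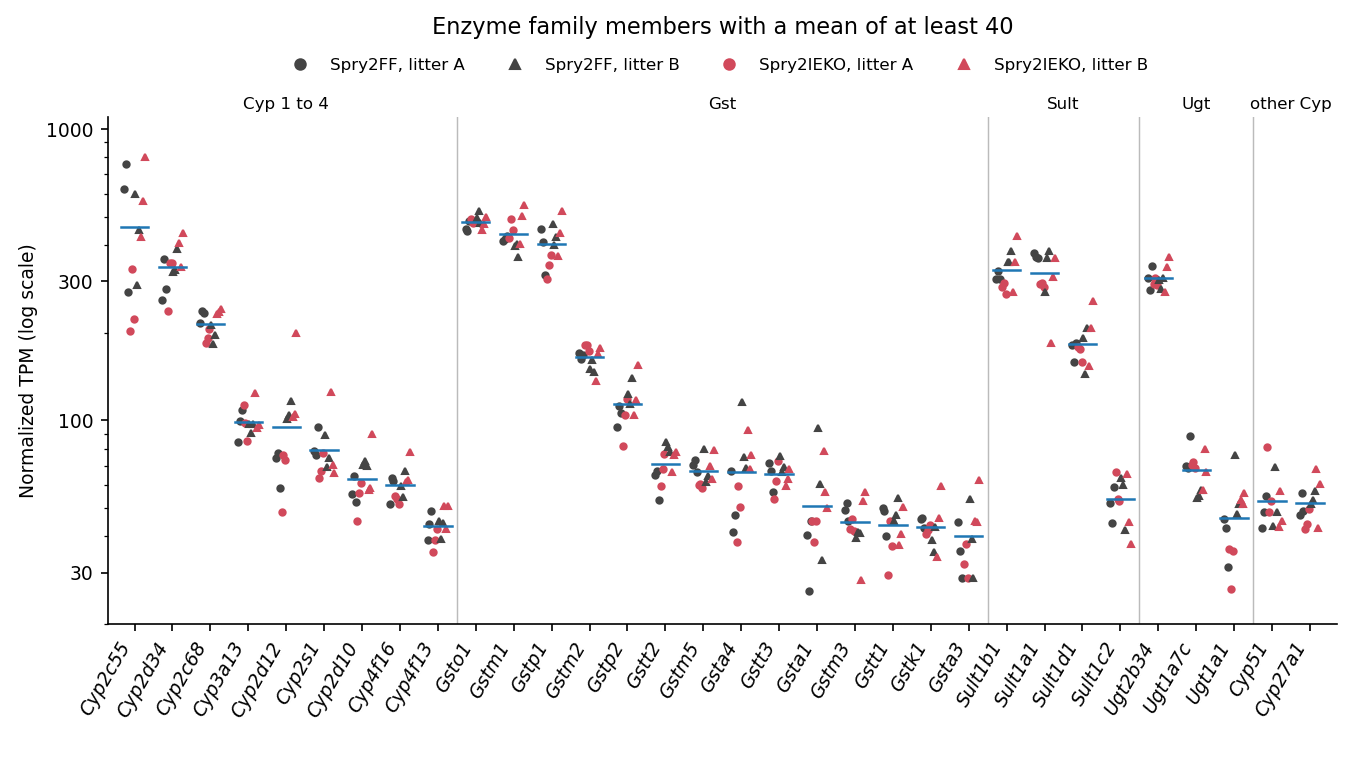
Normalized TPM on a log scale of the 32 members with a mean of at least 40, grouped by family, in each of the 12 mice; grey marks are Spry2FF, red marks Spry2IEKO, circles litter A, triangles litter B and blue lines the mean of all 12. Gsto1 is the tightest of the abundant genes (446 to 524), and Cyp2c55 spreads the most among those above 100 (203 to 801).

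Among the P450s of families 1 to 4, which take most drug and fatty acid substrates, Cyp2c55 led. Cyp2c55, a colon-rich epoxygenase and hydroxylase of arachidonic and linoleic acid, had a mean of 462 ± 205 (SD, n = 12). It was the second most abundant of all members. Cyp2d34 followed at 337 ± 58.4, Cyp2c68 at 214 ± 21.9, Cyp3a13 at 99.0 ± 11.4, Cyp2d12 at 94.7 ± 38.9 and Cyp2s1, a P450 known mainly outside the liver, at 79.3 ± 17.3. Cyp3a13 stood nearly alone in its subfamily: the 11 Cyp3a symbols summed to 99.1, and Cyp3a11, the main hepatic drug-metabolising member, was listed at 0 in all 12 mice. The classic inducible genes were as low. Cyp1a1, the textbook AhR target, ran from 0.0476 to 0.934 and Cyp1a2 was listed at 0. Cyp2b10, the CAR target, ran from 0 to 2.37, while the receptor genes themselves were present, with Ahr at 9.02 ± 1.06, Nr1i2 (PXR) at 49.8 ± 4.13 and Nr1i3 (CAR) at 5.10 ± 1.56 (SD, n = 12). Cyp1a1, Cyp1a2, Cyp3a11 and the receptor genes were picked after their values were seen. No test joins them.

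The Cyp2c genes form a cluster on chromosome 19, where 17 of the 18 symbols lie between 38976647 and 44029208 (GRCm38). Of the 18, 7 were expressed, and Cyp2c55 with Cyp2c68 made up nearly all of a sum of 688 ± 222. The remaining expressed members, chosen here after their values were seen, were Cyp2c65 at 5.47, Cyp2c69 at 3.52, Cyp2c23 at 1.41, Cyp2c67 at 0.872 and Cyp2c40 at 0.679. The 250 bases before each start site (RefSeq, GRCm38.p6) are shown for these leaders because they carry nearly all Cyp2c message, Cyp2c55 from chr19:39006769-39007018 on the plus strand and Cyp2c68 from chr19:39741102-39741351 on the minus strand, written 5′ to 3′ with motif matches in capitals.
Cyp2c55: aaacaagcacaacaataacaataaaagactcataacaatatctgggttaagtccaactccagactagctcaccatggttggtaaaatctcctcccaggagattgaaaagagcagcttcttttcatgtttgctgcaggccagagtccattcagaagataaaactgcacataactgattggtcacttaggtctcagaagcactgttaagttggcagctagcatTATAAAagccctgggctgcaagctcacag
Cyp2c68: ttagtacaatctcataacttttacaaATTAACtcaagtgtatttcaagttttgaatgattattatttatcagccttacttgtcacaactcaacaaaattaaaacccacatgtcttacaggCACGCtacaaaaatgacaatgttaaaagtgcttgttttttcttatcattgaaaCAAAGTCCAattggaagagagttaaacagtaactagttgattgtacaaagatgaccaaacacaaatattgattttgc
The capitals mark a TATA box (TATAAA, bases -29 to -24) in Cyp2c55. In Cyp2c68 they mark an HNF1 half-site read on the other strand (GTTAAT, bases -224 to -219), an AhR core on the other strand (GCGTG, bases -130 to -126) and an HNF4 motif (CAAAGTCCA, bases -77 to -69). The HNF4 motif was present in 5 of 78 promoters of the 63 tested members that have an entry, or 6.41%, all of them Cyp2c genes (Cyp2c40, Cyp2c65, Cyp2c67, Cyp2c68 and Cyp2c69), against 0.384% of 32851 promoters. These 5 genes are close copies, so the 5 matches are not independent. Shared sequence was counted in 31-base words of the leading transcript. Of these words, 62.04% of Cyp2c68, 67.63% of Cyp2c67, 65.9% of Cyp2c69, 84.55% of Cyp2c40 and 35.35% of Cyp2c65 occur in other genes. Assignment of reads among these 5 genes was thus uncertain, whereas Cyp2c55 shared 3.41%. The AhR core was present in 24.4% of member promoters and 28.2% of all, the Nrf2 core TGACNNNGC in 6.41% and 10.2%, the HNF1 half-site in 14.1% and 6.43%, and TATAAA in 14.1% and 12.4%. Both strands were searched for each motif, no pair of matches in the promoters shown overlaps, and a match is only a match of letters.

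The Cyp2d subfamily, whose human counterpart oxidises many amine drugs, was the broadest of the P450 groups. All 18 symbols lie on chromosome 15 between 81966988 and 82794294 and 11 were expressed, 4 of them pseudogenes by symbol. Their sum was 588 ± 119 (SD, n = 12). Assignment among these copies was uncertain: of the 31-base words in the leading transcript, 25.3% of Cyp2d34, 36% of Cyp2d12 and 44.6% of Cyp2d40 occur in other genes too. Cyp4f genes, which omega-hydroxylate leukotrienes and fatty acids, had 8 of 10 members expressed and a sum of 154 ± 13.5, and the 11 Cyp4a symbols, their relatives in liver and kidney, summed to 0.567 ± 0.304.

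Among the remaining P450s, the enzymes of sterol chemistry were the most abundant. Cyp51, lanosterol 14-alpha demethylase of cholesterol synthesis, stood at 53.0 ± 11.6 and Cyp27a1, the mitochondrial sterol 27-hydroxylase, at 51.9 ± 7.71. Cyp39a1, an oxysterol 7-alpha hydroxylase, reached 16.6 ± 1.85, Cyp20a1, which has no settled substrate, 16.2 ± 2.39, and Cyp7b1, another oxysterol 7-alpha hydroxylase, 1.66 ± 0.693 (SD, n = 12). Cyp11a1, the side-chain cleavage enzyme that opens steroid synthesis, ran from 2.37 to 18.2. Of its value, 86.8% came from a short transcript of 539 bases that shares 22.8% of its 31-base words with the gene Gm17322, so reads of Cyp11a1 itself are uncertain. Cyp24a1, the vitamin D catabolic enzyme, was listed at 0 in all mice beside a Vdr of 194 ± 23.1.

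Among the glucuronosyltransferases 1 gene led. Ugt2b34 stood at 308 ± 26.6 (SD, n = 12), 63.4% of the Ugt sum, with Ugt2b35 at 18.9 ± 2.98 and the other 5 Ugt2b symbols under 0.5. The Ugt1a locus (chromosome 1, 88055388 to 88220002) builds each enzyme from its own first exon and a shared remainder, and 5 of its 9 symbols were expressed. Ugt1a7c stood at 67.3 ± 10.2, Ugt1a1, the bilirubin-conjugating enzyme, at 46.2 ± 13.2, Ugt1a6a, which prefers planar phenols, at 23.8 ± 4.16 and Ugt1a6b at 17.2 ± 5.17. Of the 31-base words, 81.3% in Ugt1a1, 85.1% in Ugt1a6b and 100% in Ugt1a6a occur in other genes, so how reads were divided among these names is uncertain, whereas the sum of the locus, 158 ± 16.2 (range 139.8 to 189), is not affected by division among them.

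Glutathione transferase message was spread over more genes. Gsto1, the omega-class enzyme that reduces dehydroascorbate and methylated arsenic, had the highest mean of all members, 479 ± 22.1, and with a coefficient of variation of 4.62% it was also the steadiest of the 81. Gstm1 stood at 437 ± 52.6, Gstp1, the pi-class enzyme, at 402 ± 65.5, Gstm2 at 165 ± 14.0, Gstp2 at 114 ± 19.4 and Gstt2 at 71.1 ± 9.39 (SD, n = 12). All 7 Gstm genes of the chromosome 3 cluster were expressed. Gstp1 and Gstp2 share 67.5% and 78.1% of their words with other genes, chiefly each other, and each was entered under 2 gene identifiers whose values were added. Gsta4, the alpha-class enzyme that clears 4-hydroxynonenal from lipid peroxidation, stood at 66.6 ± 22.1 and shared none of its words. Gsta1 shared 92.19% of its words with other genes, so assignment of its reads is uncertain.

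Few sulfotransferases were expressed. Sult1b1 at 328 ± 47.2, Sult1a1 at 321 ± 57.4, Sult1d1 at 183 ± 30.8 and Sult1c2 at 53.5 ± 9.69 made up the expressed Sult1 genes. Sult1a1 and Sult1b1 act on phenols and Sult1d1 on catechols. Sult2b1, the cholesterol and pregnenolone sulfotransferase of epithelia, stood at 35.5 ± 5.21, the brain-type Sult4a1 at 2.29 ± 0.534, and 10 of 13 Sult2 symbols, most of them the liver Sult2a copies, were listed at 0 (SD, n = 12). The suppliers of these reactions were present as well. Papss1 and Papss2, which make the sulfate donor, were at 112 ± 7.97 and 115 ± 3.96, Ugdh, which makes UDP-glucuronate, at 211 ± 42.6, and the P450 electron donor Por at 95.2 ± 20.4, all named here after their values were seen.

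Across the 12 mice the members were about as variable as other genes. The median coefficient of variation was 19.5% for the 81 and 18.3% over the 15880 genes tested. Of the members, 41 were under 20% and 12 over 50%, the latter including Cyp2e1 at 209.9%, Cyp2b10 at 108%, Cyp2d34-ps at 89.3% and Cyp11a1 at 63.0%. At a mean of 10 or more the medians were 16.1% for 53 members and 13% for 8626 genes, and Cyp2c55 at 44.5% and Cyp2d12 at 41.0% were wider than most.

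To see whether epithelial loss of Spry2 moved these enzymes, the 6 Spry2IEKO mice were set against the 6 Spry2FF mice. The families were at nearly equal levels: the members summed to 5474 ± 746 in Spry2IEKO and 5479 ± 250 in Spry2FF mice (SD, n = 6). Cyp families 1 to 4 summed to 1707 ± 382 and 1699 ± 220, Gst to 2235 ± 219 and 2191 ± 115, Ugt to 493 ± 55.8 and 479 ± 27.7, and Sult to 887 ± 141 and 963 ± 45.3. The Spry2IEKO mice spread more widely in each of these sums. The other Cyp genes went the other way, at 152 ± 10.8 in Spry2IEKO and 147 ± 15.4 in Spry2FF mice. By limma on log2(normalized TPM + 0.5), adjusted over all genes tested, 0 of 81 members passed an adjusted p of 0.05, where 5 of 15880 genes, or 0.0315%, did. The lowest adjusted p of a member was 0.693. At an unadjusted p under 0.05 there were 7 members, 8.64% of 81, beside 6.18% of all genes. That count was 3 without Spry2FF mouse 2 or 10 and 4 without Spry2FF mouse 13. In all, 0 members had groups without overlap, beside 0.403%. The median log2 difference was 0.012 for members and 0.0076 for all genes.

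The precision of the genotype comparison differed by gene. The model behind these intervals held genotype alone, without litter or sex. The 95% interval of the log2 difference lay within ±0.5 for 39 members and within ±1 for 74. For Gsto1 it ran from -0.12 to 0.11, for Cyp2c68 from -0.18 to 0.20, for Ugt2b34 from -0.12 to 0.20, for Cyp3a13 from -0.12 to 0.27 and for Sult1b1 from -0.33 to 0.14. For Cyp2c55 it ran from -1.06 to 0.46, which includes a log2 difference of -1 that could not be detected at this spread. The other members whose interval passed ±1 were Cyp11a1, Cyp2b10, Cyp2d34-ps, Cyp2e1, Cyp4f18 and Gsto2.

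The 7 members with the lowest genotype p were small in difference or in level. Gsto2, the weakly expressed omega-class neighbour of Gsto1, ranged from 1.09 to 1.5 (median 1.17) in Spry2FF and from 0.249 to 1.18 (median 0.546) in Spry2IEKO mice, a log2 difference of -0.63 (SE 0.221, adjusted p = 0.693). The groups overlapped at their edges. Gstm1 ranged from 364 to 429 (median 408) in Spry2FF and from 403 to 549.6 (median 470.2) in Spry2IEKO mice, a log2 difference of 0.21 (SE 0.0770, adjusted p = 0.733). Sult1a1 ranged from 276 to 380.5 in Spry2FF and from 184 to 359.5 in Spry2IEKO mice (log2 difference -0.31, SE 0.137, adjusted p = 0.794), with overlap. The pseudogenes Cyp2d37-ps and Cyp2d34-ps had log2 differences of 0.43 and 0.65, Gstt1 of -0.26 and Gstz1, named after its value was seen, of 0.26. Goblet cell markers summed to 5557 to 8029 in Spry2FF and 6326 to 11879 in Spry2IEKO mice, and 5 of 6 were higher at an unadjusted p under 0.05, Muc2 by 0.53 (adjusted p = 0.16). Absorptive colonocyte markers summed to 4079 to 6780 in Spry2FF and 2832 to 7360 in Spry2IEKO mice with a median log2 difference of -0.28, and 2 of 5 were lower at an unadjusted p under 0.05, Car1 by -0.64 and Krt20 by -0.37 (adjusted p = 0.692 and 0.753). The hepatocyte markers Ttr and Alb, the 2 of that list that were tested, were higher at an unadjusted p under 0.05, by 0.26 and 0.89 (adjusted p = 0.692 for both). Of 2 mast cell markers tested, the protease Cma1 rose by 1.90 (adjusted p = 0.0350) and Kit was 0.29 higher (adjusted p = 0.826). Their part in the members' values was not tested, and in bulk tissue fewer cells of a type and less RNA per cell cannot be told apart.

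Apart from the members, 74 of 75 listed genes of the same pathways were tested (receptors, electron donors, cofactor supply, other enzymes and efflux pumps). Between genotypes 0 rose and 0 fell at an adjusted p of 0.05, with 7 at an unadjusted p under 0.05, 9.46% of 74 beside 6.18% of all genes. Of these, 2 were higher, the efflux pump Abcc5 by 0.43 and the soluble epoxide hydrolase Ephx2 by 0.32. The 5 that were lower included Hnf4a at -0.21, Nr1h4, the bile acid receptor FXR, at -0.20, and Srxn1, an Nrf2 target, at -0.22 (log2 differences, adjusted p of these genes between 0.628 and 0.781).

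The litters differed more than the genotypes did, and 4 members passed the test. Adjusted for genotype, Cyp4b1, best known as a lung P450 that activates pneumotoxins, fell from litter A to B, while Ugt1a1, Cyp2d12 and Gsta4 rose. Beside 3 members higher in B, 1.08% of all genes were higher, and beside 1 member lower in B, 3.31% of all genes were lower. The same 4 were the members whose 6 values in each litter did not overlap, 4.94% of 81 beside 3.72% of all genes. The share without overlap is close to the background.

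**Figure D2:**
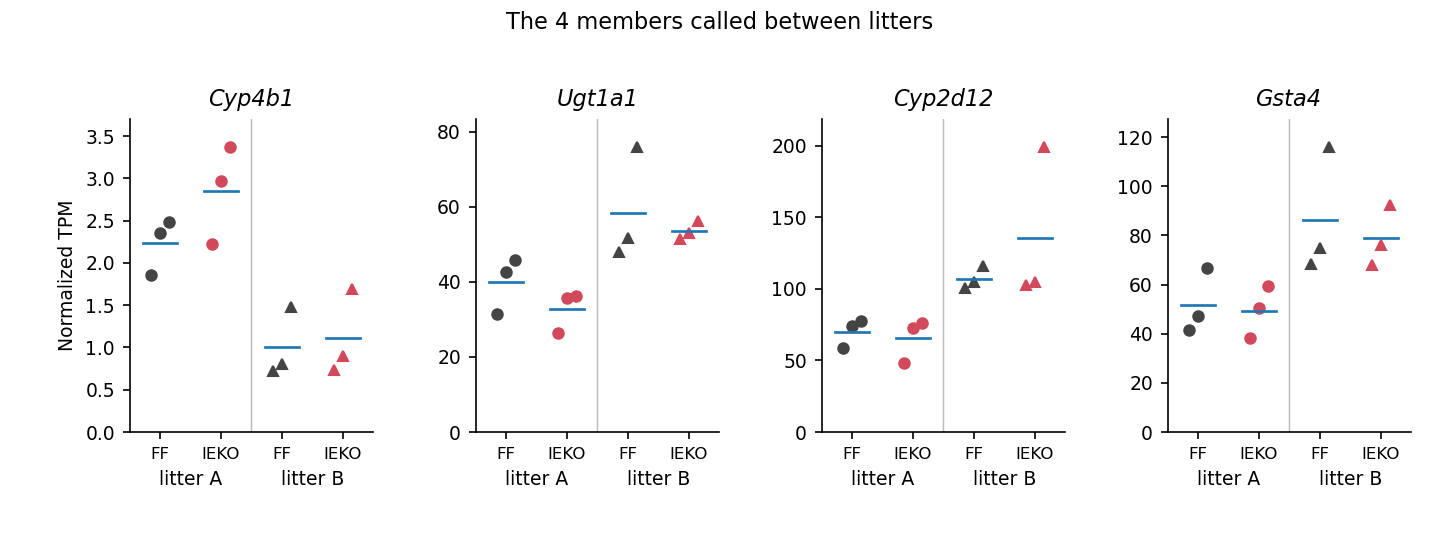
Normalized TPM of Cyp4b1, Ugt1a1, Cyp2d12 and Gsta4, with 3 mice for each genotype and litter; points are mice and blue lines the mean of 3. The 6 mice of litter A lie above all 6 of litter B for Cyp4b1 and below them for the other 3 genes, in both genotypes.

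Cyp4b1 (chr4:115624725-115647723, minus strand) ran from 1.86 to 3.37 (median 2.42) in litter A and from 0.719 to 1.69 (median 0.854) in litter B. All 6 mice of A were above all 6 of B. The log2 difference, B minus A, was -0.99 (SE 0.191, limma adjusted p = 0.0199), -0.89 within Spry2FF and -1.09 within Spry2IEKO mice. Fibroblast markers moved the same way: all 5 (Col1a1, Col1a2, Dcn, Pdgfra and Lum) were lower in B at an unadjusted p under 0.05, 3 of them at an adjusted p of 0.05 (Col1a1 -0.89, Col1a2 -0.75, Pdgfra -0.73), and their sum ran from 254 to 439 in A and from 150 to 286 in B. Their part in the Cyp4b1 difference was not tested.

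Ugt1a1 (chr1:88211959-88218997, plus strand) ran from 26.3 to 45.8 (median 35.9) in litter A and from 47.8 to 75.8 (median 52.4) in litter B, again with no overlap. The log2 difference was 0.62 (SE 0.133, adjusted p = 0.0275), 0.53 within Spry2FF and 0.72 within Spry2IEKO mice. Of the rest of its locus, Ugt1a6b was also higher, by 0.38 (limma, unadjusted p = 0.0439, adjusted p = 0.214). The others did not follow, with log2 differences of -0.01 for Ugt1a6a, -0.04 for Ugt1a8 and -0.24 for Ugt1a7c (adjusted p = 0.172). The summed locus was 151 ± 8.78 in A and 165 ± 19.6 in B (SD, n = 6). A shift of reads between names of the locus therefore cannot be told apart from a change of Ugt1a1.

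Cyp2d12 (chr15:82555072-82560403, plus strand) ran from 48.5 to 77.3 (median 73.6) in litter A and from 101 to 199 (median 105) in litter B. The highest value belonged to Spry2IEKO mouse 12 and the remaining 5 mice of B lay between 101 and 116. The log2 difference was 0.81 (SE 0.175, adjusted p = 0.0297). Gsta4 (chr9:78182774-78209349, plus strand) ran from 38.3 to 66.8 (median 48.9) in A and from 67.9 to 116 (median 75.3) in B, where the groups were separate by a narrow gap. Its log2 difference was 0.70 (SE 0.161, adjusted p = 0.0344). Within genotypes the differences were 0.62 and 0.99 for Cyp2d12 and 0.72 and 0.68 for Gsta4, in Spry2FF and Spry2IEKO mice in that order.

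The 4 calls depended on single mice. Without Spry2IEKO mouse 5 or without Spry2FF mouse 9 no member passed, with the 4 adjusted p between 0.0511 and 0.0687. Without Spry2FF mouse 7 or 13 only 1 passed, and without Spry2IEKO mouse 6 or 12 it was 2. Without Spry2IEKO mice 4 and 5, the pair with high adipocyte markers, 0 members and 18 of all genes passed, the 4 members then having log2 differences of -0.86 (Cyp4b1), 0.55 (Ugt1a1), 0.69 (Cyp2d12) and 0.69 (Gsta4) and adjusted p between 0.128 and 0.135. Their direction held in each of the 24 alternatives computed for each gene.

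The promoters of the 2 litter-called genes with a RefSeq entry are shown for comparison, Cyp4b1 from chr4:115647722-115647971 on the minus strand and Ugt1a1 from chr1:88211709-88211958 on the plus strand (GRCm38.p6, 250 bases before the start site, 5′ to 3′).
Cyp4b1: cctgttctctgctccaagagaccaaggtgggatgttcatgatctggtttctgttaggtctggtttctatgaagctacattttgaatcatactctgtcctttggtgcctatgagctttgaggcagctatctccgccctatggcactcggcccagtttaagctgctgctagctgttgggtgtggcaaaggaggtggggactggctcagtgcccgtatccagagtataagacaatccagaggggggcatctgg
Ugt1a1: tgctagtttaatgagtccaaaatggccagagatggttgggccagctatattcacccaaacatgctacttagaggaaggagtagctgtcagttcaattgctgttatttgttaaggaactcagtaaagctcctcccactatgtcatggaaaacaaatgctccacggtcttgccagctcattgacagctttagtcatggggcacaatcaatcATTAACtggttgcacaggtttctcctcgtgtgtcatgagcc
Cyp4b1 holds none of the motifs searched. The capitals in Ugt1a1 mark an HNF1 half-site on the other strand at bases -41 to -36.

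Beyond the 4 calls, the subfamilies were counted by direction. At an unadjusted p under 0.05, 15 members were higher in B, 18.5% beside 7.08% of all genes, and 5 were lower, 6.17% beside 14.8% of all genes. Both directions together gave 20, which became 12 with equal totals, 12 without Spry2FF mouse 9, 13 without Spry2IEKO mouse 12 and 9 without Spry2IEKO mice 4 and 5. All 11 Cyp2d members were higher in B (median log2 difference 0.32, 6 at an unadjusted p under 0.05). Direction held for 11 of 11 with equal totals, with quantile normalization and without the mice of high adipocyte markers. Fewer passed that unadjusted threshold there: 2 with equal totals, 5 with quantile normalization and 2 without those mice. The Cyp2d genes are neighbours with shared sequence and do not count as 11 observations. Their sum was 511 ± 80.2 in A and 665 ± 103 in B (SD, n = 6). Cyp2d40, next after the 4 in p, ran from 2.74 to 4.31 in A and from 3.85 to 7.03 in B, a log2 difference of 0.58 that missed the threshold (SE 0.157, adjusted p = 0.0553). The 3 Gstp genes were also higher in B (0.26 for Gstp1, 0.28 for Gstp2), as were the 3 Gsta genes under the same settings, whereas 6 of 7 Gstm genes were lower, Gstm2 by -0.14 (adjusted p = 0.199). With quantile normalization 5 of 7 Gstm genes were lower. The 3 Gstt genes were higher as deposited and 2 of 3 with equal totals. Of the Cyp2c genes, 6 of 7 were higher in B, and 4 of 7 with equal totals. The 2 Ugt2b genes were higher and the 2 Cyp2j genes lower. Split subfamilies were Cyp4f, Ugt1a, Sult1 and Gsto, with 4 of 8, 2 of 5, 2 of 4 and 1 of 2 genes higher in B. No test of direction by subfamily was made.

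**Figure D3:**
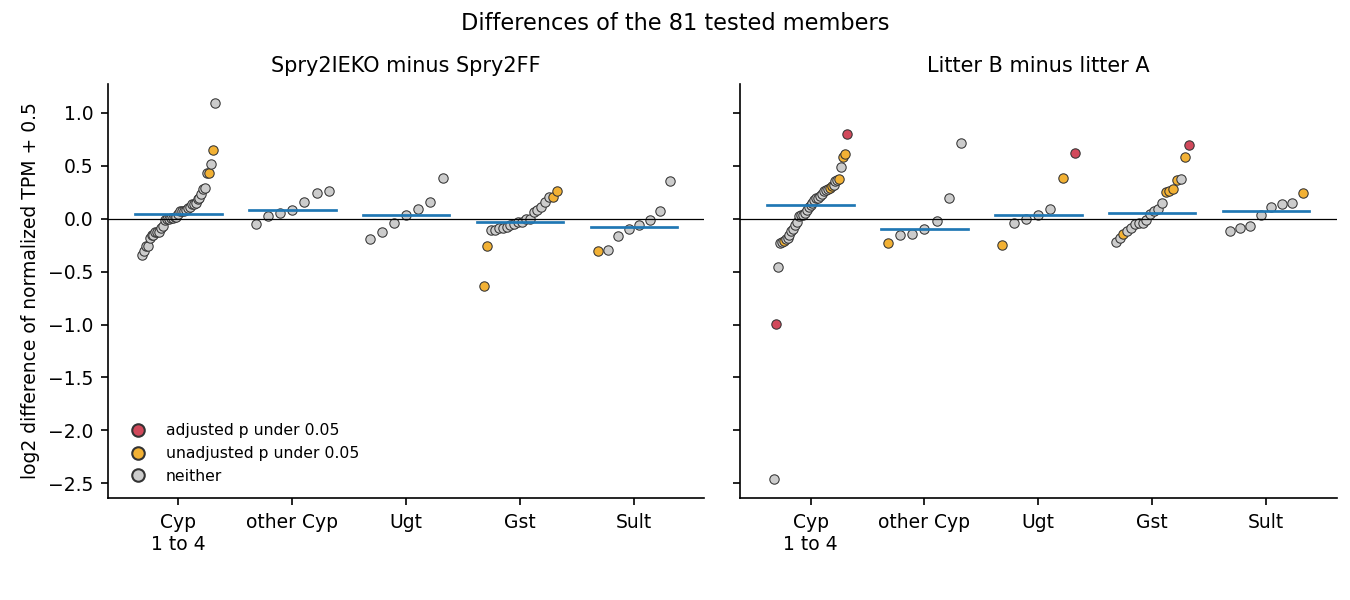
Log2 differences of the 81 tested members by family, for genotype (left, Spry2IEKO minus Spry2FF) and litter (right, B minus A); each point is a gene, red for an adjusted p under 0.05, yellow for an unadjusted p under 0.05 and grey for neither, and blue lines are family medians. The genotype panel holds no red point and the litter panel holds 4, and the lowest point of the litter panel is Cyp2e1 at -2.46.

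Over all 81 members, 59.3% were higher in B with a median of 0.071, against 41.2% of all genes with a median of -0.049. This split depended on scaling. With the values brought to equal totals, which moved the median of all genes to -0.12, 49.4% of members and 29.2% of all genes were higher, and with quantile normalization 67.9% and 51.8% were. Relative to the median of all genes, the members' median lay 0.12 higher in the deposited values, 0.12 with equal totals and 0.11 with quantile normalization. Of 5 absorptive colonocyte markers, 3 were also higher in B at an unadjusted p under 0.05. Car4, Slc26a3 and Aqp8 were 0.54, 0.68 and 0.53 higher (adjusted p between 0.0572 and 0.135). Car1 and Krt20 were 0.36 and 0.17 higher (adjusted p = 0.306 and 0.513). Their list summed to 2832 to 6398 in A and 4247 to 7360 in B. The small intestinal marker Rbp2 was 0.67 higher in B (adjusted p = 0.0577), and 3 of 6 adipocyte markers were lower in B at an unadjusted p under 0.05. What part of the members' differences goes with these markers was not tested. Of the pathway genes, 0 rose and 1 fell in B, the microsomal epoxide hydrolase Ephx1 (log2 difference -0.46, adjusted p = 0.0321), and 18 of 74 had an unadjusted p under 0.05. Of the 18, 9 were higher, 12.2% of 74 beside 7.08% of all genes, and 9 were lower, 12.2% beside 14.8%. Among them were Arnt, the partner of AhR, at -0.27, and Gclc, the rate-limiting enzyme of glutathione synthesis, at 0.21.

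The test of a genotype difference that is unequal in the litters called 0 members, where 2 of 15880 genes, or 0.0126%, passed. On simulated data this test recovered 32% of log2 differences of 1, so 0 calls do not show that unequal differences are absent. At an unadjusted p under 0.05 there were 8 members, 9.88% beside 4.19% of all genes. That count was 16 without Spry2IEKO mouse 8, 5 without Spry2FF mouse 10 or Spry2IEKO mouse 12, and 3 without Spry2IEKO mice 4 and 5. At the same threshold 5 of 6 adipocyte markers had a genotype difference that was lower in B than in A (median -3.84), and their part was not tested. Cyp2c68 had the lowest p (0.000546, adjusted p = 0.862). As 62.04% of its 31-base words occur in other genes, assignment of its reads is uncertain. Its values in litter A were 217, 237 and 233 in Spry2FF and 184, 192 and 205 in Spry2IEKO mice, and in litter B they were 213, 182 and 196 in Spry2FF and 232, 236 and 242 in Spry2IEKO mice. The Spry2IEKO mice were thus below every Spry2FF mouse in A and above every one in B, by log2 differences of -0.24 and 0.27. Cyp2d40 showed the same arrangement at lower levels, with differences of -0.31 in A and 0.46 in B (adjusted p = 0.998).

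**Figure D4:**
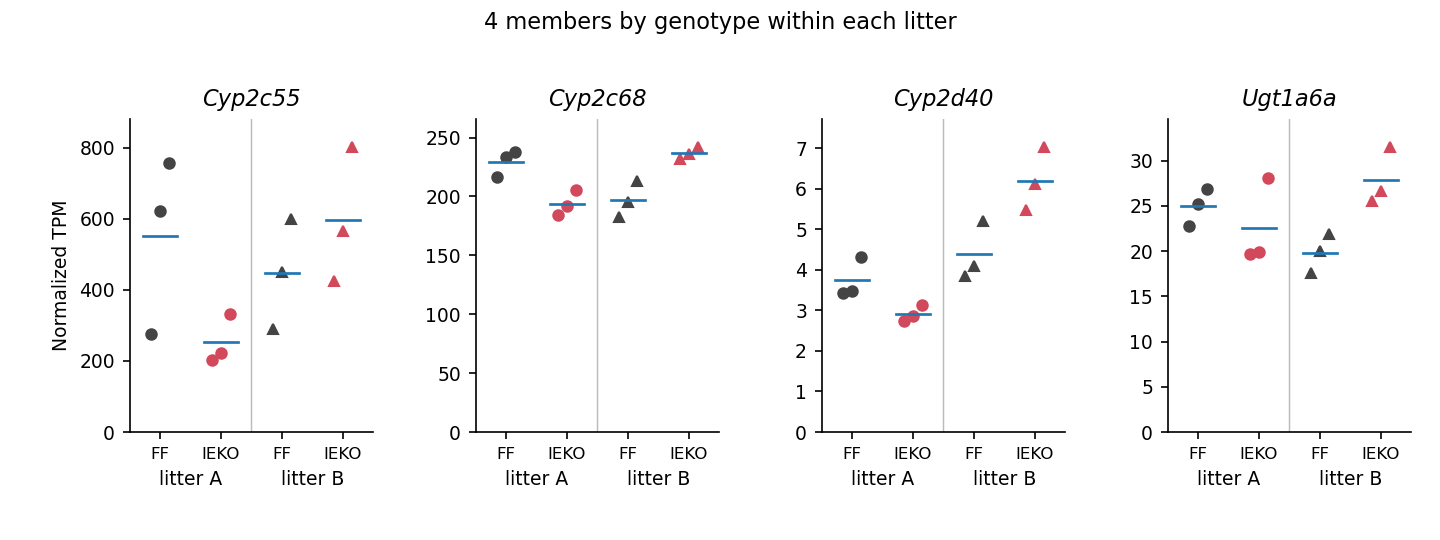
Normalized TPM of Cyp2c55, Cyp2c68, Cyp2d40 and Ugt1a6a, 3 mice for each genotype and litter, with blue lines for the mean of 3. In Cyp2c68 and Cyp2d40 the Spry2IEKO mice lie below the Spry2FF mice in litter A and above them in litter B; in Cyp2c55 and Ugt1a6a they overlap in litter A.

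Cyp2c55 gave the widest swings among the abundant genes. In litter A it read 621, 757 and 276 in Spry2FF and 203, 331 and 223 in Spry2IEKO mice, and in litter B 601, 291 and 449 in Spry2FF and 426, 565 and 801 in Spry2IEKO mice. The within-litter log2 differences of genotype were -1.04 and 0.43 and their difference was 1.47 (SE 0.55, adjusted p = 0.998), with overlap in both litters. The absorptive colonocyte markers summed to 3844 or less in the 3 Spry2IEKO mice of litter A and to 4079 or more in the other 9 mice. The 5 lowest Cyp2c55 values belonged to these 3 mice and to Spry2FF mice 7 and 10. Their part in the Cyp2c55 values was not tested.

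Cyp2e1, the ethanol- and paracetamol-oxidising P450, varied more than any other tested member. It was at 52.7 and 89.7 in Spry2IEKO mice 4 and 5, at 10.8 in Spry2FF mouse 2 and between 0.134 and 3.68 in the other 9 mice. The same 3 mice had the highest adipocyte marker sums, 475, 898 and 89.5. The genotype log2 difference was 1.1 with an interval from -1.72 to 3.91 (adjusted p = 0.919), and the litter difference of -2.46 was not called either (adjusted p = 0.242). Adipoq, which marks fat cells, was at 57.8 and 70.8 in mice 4 and 5 and at 6.44 in Spry2FF mouse 2. A genotype or litter difference in Cyp2e1 cannot be told apart from one in these markers here.

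**Figure D5:**
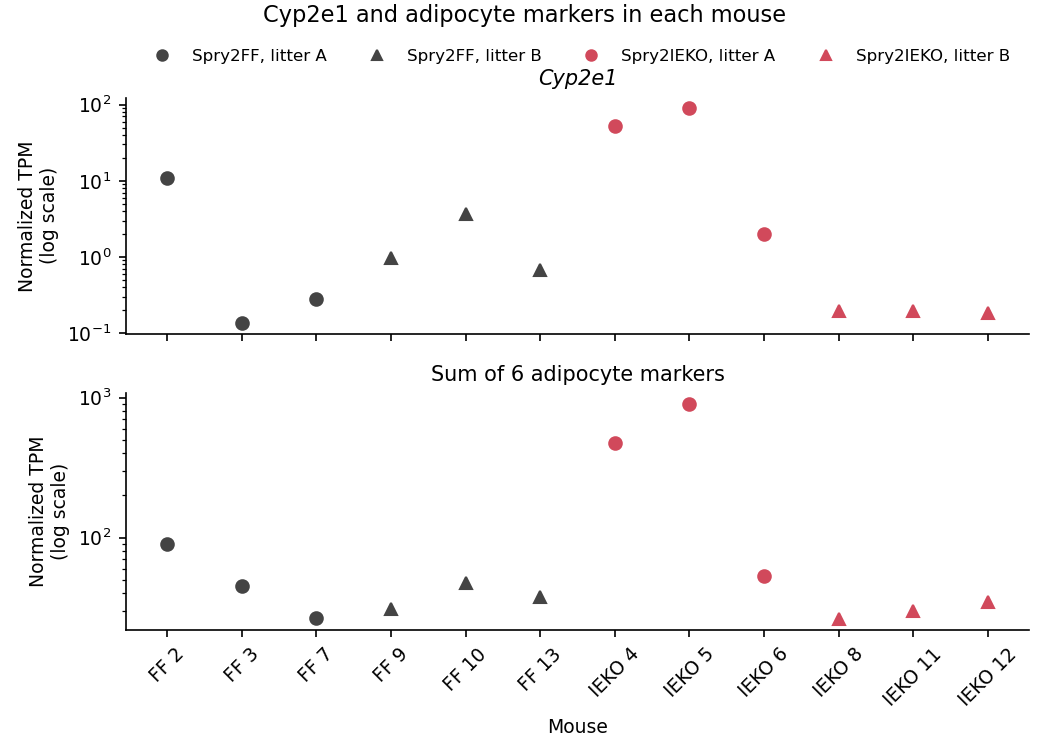
Cyp2e1 (top) and the sum of 6 adipocyte markers (bottom) in normalized TPM on log scales, 1 point for each mouse, named by genotype and number. The order of the 3 highest mice is the same in both panels.

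Sex was compared with genotype and litter in the model, since several of these genes are sexually dimorphic in rodent liver. Of 81 members 0 passed, beside 0.101% of all genes, and the lowest adjusted p was 0.207. At an unadjusted p under 0.05 there were 10 members, 12.3% beside 8.41% of all genes. Cyp2d37-ps was 0.40 higher in males (log2 difference, SE 0.0872), Gstm7 0.34 lower (SE 0.0905, adjusted p = 0.296), Cyp2b10 1.23 higher (SE 0.414, adjusted p = 0.449) and Ugt1a1 0.35 higher (SE 0.117, adjusted p = 0.452). Cyp2c67 was the only member whose sexes did not overlap, 1.23% of 81 beside 1.1% of all genes, with 0.957 to 1.53 in 4 males and 0.304 to 0.92 in 8 females (adjusted p = 0.463). Of the 31-base words of Cyp2c67, 67.63% occur in other genes, so assignment of its reads is uncertain. With 1 male among the Spry2IEKO mice, sex rests chiefly on the Spry2FF mice. All 5 smooth muscle markers were also higher in males at an unadjusted p under 0.05 (median log2 difference 0.61), while 5 of 6 goblet cell markers (median -0.40) and both tested hepatocyte markers (median -0.41) were lower. Their part was not tested.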

How the data were processed

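RNA from full-thickness distal colon of 12 mice was sequenced. Labels and methods disagree on paired or single reads and on age. The deposited table holds 1 signal value for each transcript and mouse. The authors estimated TPM with kallisto. The labels do not state the unit, and it was inferred that these are TPM scaled again between mice, from sleuth being named in the submitters' processing notes and from totals that differ between mice. CASAVA and mm10 are also named there. The authors' columns of comparison statistics were not used. Here 781 repeated entries were dropped (0 of members), 28 symbols turned into dates were restored, and transcripts were summed per symbol. Positions came from GENCODE (GRCm38) and all 199 members matched. Promoters came from RefSeq (GRCm38.p6), with entries for 63 of 81 tested members. Genes with a mean of at least 0.5 normalized TPM were tested on log2(value + 0.5), so folds of low genes are understated, with limma 3.58.1 (trend, R 4.3.3) and Benjamini-Hochberg adjustment over all 15880 genes; models held genotype, then litter, sex or the genotype by litter product. Plots and tables used Python 3.11.15. The fits were tested on simulated data first, with a log2 change of 1 in 200 of 15880 genes. They recovered 79% of these for genotype, 76% for litter, 74.5% for sex and 32% for the product. Wrong calls were 7.06%, 6.17%, 5.7% and 8.57% in that order. The labels do not say how mice relate beyond litter, and p-values measure the spread between these mice. The members and gene lists were chosen with earlier results of these data known. Genes were named if among the 6 highest of a family group, past an adjusted p of 0.05 or among the 5 lowest p of a comparison, or without overlap between genotypes or litters; all other genes in the text, among them marker and pathway genes, were picked with their values known. Shared sequence was checked as 31-base words of each leading transcript found in other GENCODE genes. Alternatives were the pseudocount, the filter, the scaling, the covariates, subsets of mice and leaving out each mouse.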

Additional observations from a re-analysis of the deposited data

Results flagged for a closer look

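In 8 of 92 sets of 6 mice examined, 1 mouse lay apart from the other 5 of its genotype by a gap of over 0.625 of the whole range, where chance gives about 1 in 20. Cyp2s1 was at 125.6 in Spry2IEKO mouse 8, against 63.5 to 77.3 in the other 5, and Gstm2 was at 137 in the same mouse, against 169 to 181. Cyp2e1 was at 10.83 in Spry2FF mouse 2, against 0.134 to 3.68. Cyp51 was at 81.24 in Spry2IEKO mouse 4, against 43.1 to 57.3. Cyp2d34-ps was at 2.677 in Spry2IEKO mouse 12, against 0.505 to 0.938. In Spry2FF mouse 9, Cyp2d37-ps was at 16.76 (the others 10.4 to 11.9) and Sult1a1 at 275.9 (the others 359.6 to 380.5). The summed Sult level was 1052 in Spry2FF mouse 13, against 925 to 962. Values are normalized TPM.

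For Cyp2c68 and Cyp2d40, every Spry2IEKO mouse lay on one side of the Spry2FF mice in litter A and on the other side in litter B. The genotype difference in litter B minus that in litter A was 0.5072 for Cyp2c68 (log2 scale; limma, adjusted p = 0.862) and 0.7693 for Cyp2d40 (limma, adjusted p = 0.998). They were 2 of 81 members tested, and neither passed the adjusted test. The share of all genes with this arrangement was not counted, so 2 of 81 cannot be set against the background. Of their 31-base words, 62.04% of Cyp2c68 and 44.57% of Cyp2d40 occur in other genes.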

How the results depend on the processing

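The counts of members called between genotypes, between sexes and for the product of genotype and litter were 0 in all alternatives computed, leaving out each mouse included. At an unadjusted p under 0.05 the genotype count of 7 ran from 3 to 9, the litter count of 20 from 9 to 23, the sex count of 10 from 7 to 15 and the count of 8 for the product from 3 to 16, over the same alternatives. The litter count of 4 was 2 when every gene above 0 in some mouse was tested (422 genes called in all, against 696), and 0 without Spry2IEKO mice 4 and 5 (18 genes called), in females alone, in Spry2FF mice alone and in Spry2IEKO mice alone, where fewer mice entered the fit; leaving out 1 mouse at a time gave 0 to 5. Over all alternatives the litter calls of all genes ran from 1 to 1456, the highest with equal totals. The named members' differences made 20 results with 436 alternatives, of which 395 kept direction and side of the threshold, 38 lost the call, 3 gained it (all Cyp2d40 between litters) and 0 changed direction as calls. The count of 81 expressed members stayed within 1.5 times at a mean of 0.1 or 1. No paired analysis was possible because the groups share no replicate numbers. The main genotype model held neither litter nor sex. Litter, which holds 3 mice of each genotype, entered that comparison only as an alternative. With litter, 0 members were called, 8 had an unadjusted p under 0.05 and the lowest adjusted p was 0.42. With sex instead, 5 members had an unadjusted p under 0.05 and the lowest adjusted p was 0.734. The paper gives an approximate read depth per sample, but the depth of each mouse is unknown. Members under a mean of 0.5 may thus be expressed at levels not detectable here.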
